A study of Mus musculus with 12 samples.

Results

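The clustered protocadherins are 58 mouse genes in RefSeq (GRCm38.p6) that lie head to tail on chromosome 18, between 36930285 and 37841873. They form an alpha cluster of 14 genes, a beta cluster of 22 and a gamma cluster of 22. The members described here are the rows of 6 peak lists for H4K8ac, acetylation of lysine 8 on histone H4, whose assigned gene carries one of these names. There are 14 such rows among 269580 in all, and they name 7 of the 58 genes. Neonatal replicates 1, 2 and 3 held 0, 4 and 0 of the rows, and adult replicates 1, 2 and 3 held 6, 1 and 3.

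Clustered protocadherins are cell surface adhesion proteins of the cadherin family that bind their own kind on a neighbouring cell. In the alpha and gamma clusters each gene has its own promoter and a large variable exon, which is spliced to constant exons shared by the whole cluster. Beta genes have no shared constant exons. Neurons are known to use a few of the variable exons per cell, which gives each cell a surface identity, whereas the C-type exons at the 3' end of the alpha cluster (Pcdhac1 and Pcdhac2) and of the gamma cluster (Pcdhgc3, Pcdhgc4 and Pcdhgc5) are used more uniformly. H4K8ac is a mark of active promoters and enhancers. Oligodendrocyte progenitor cells (OPCs) are dividing glia from which the myelin-forming cells of the brain arise.

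The OPCs were sorted from the forebrain of PdgfrαH2BEGFP mice, in which Pdgfra, a receptor gene that marks OPCs, drives a fluorescent histone that labels the nucleus, and both groups shared this genotype. Neonatal cells were taken at postnatal day 5 and adult cells at postnatal day 60, with 3 biological replicates at each age and no treatment named. The 6 matching input libraries were not analysed here, and whether a replicate was 1 animal or a pool is not given in the sources used here. In a sorted population, a mark in fewer cells and a weaker mark in each cell cannot be told apart.

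Lists differed in length: 7353 to 31189 peaks in the neonatal libraries and 72278 to 77002 in the adult libraries, with neonatal replicate 2 the longest neonatal list. Read numbers are not in the files, so depth is unknown. Of 10 OPC marker genes, 10, 10 and 8 had a promoter peak in neonatal replicates 1 to 3, and 9, 9 and 8 in adult replicates 1 to 3. Of 10 neuronal marker genes, 0, 5 and 1 had it in the neonatal libraries and 5, 3 and 3 in the adult libraries. Among these, Rbfox3, Tubb3 and Slc17a7 had it in all 3 adult libraries, Rbfox3 and Tubb3 also in neonatal replicate 2, and Gad1 in 2 neonatal and 1 adult library. Syt1 had it in 1 library of each age and Gad2 in 1 neonatal library, while Snap25, Slc17a6, Stmn2 and Nefl had none in any library. Of 8 mature oligodendrocyte markers, 2, 2 and 1 had it in the neonatal libraries and all 8 in each adult library. Astrocyte markers numbered 3, 6 and 1 of 8 in the neonatal and 5, 3 and 6 of 8 in the adult libraries. Microglial markers numbered 0 of 8 in each neonatal and 1 of 8 in each adult library. Neonatal replicate 2 and adult replicate 1, the libraries with the most clustered protocadherin rows, also had the most neuronal markers. They also had the highest share of all protein-coding genes with a promoter peak at their age, 53.3% and 56.3%. The part of these other cell types in the protocadherin peaks was not tested.

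Few clustered protocadherins had a listed promoter peak, at either age. The lists hold called peaks only, so signal too weak to be called is not seen. A promoter peak, which the authors' annotation places within 3000 bp of a transcription start site (TSS), was assigned to none of the 58 genes in neonatal replicates 1 and 3 and to 4 in neonatal replicate 2. In adult replicates 1, 2 and 3 it was assigned to 5, 1 and 3 of the 58. Across all 21631 protein-coding genes the shares with a promoter peak were 26.4%, 53.3% and 23.5% in neonatal replicates 1 to 3 and 56.3%, 54.4% and 55.2% in adult replicates 1 to 3. The highest share among the clustered genes was 8.62%, in adult replicate 1. Over the 6 libraries together, 7 of 58 clustered genes (12.1%) had a promoter peak at least once, against 62.2% of protein-coding genes. The ages overlapped: neonatal replicate 2 named more members than adult replicates 2 and 3 did, and the other neonatal libraries named none.

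Most C-type genes and few variable genes were named at least once. Of the 5 C-type genes, 4 had a promoter peak in at least 1 library, and of the 53 variable genes 3 did. In neonatal replicates 1 to 3, 0, 4 and 0 of the 5 C-type genes had a promoter peak, and in adult replicates 1 to 3 the numbers were 2, 1 and 3. The C-type share was above that of all protein-coding genes in neonatal replicate 2 (80.0% against 53.3%) and adult replicate 3 (60.0% against 55.2%). It was below that share in each of the other libraries. Among variable genes the count was 3 in adult replicate 1 and 0 in each of the other 5 libraries. No member had a promoter peak in all 6 libraries, a pattern found in 17.5% of protein-coding genes. No member had one in all adult and no neonatal libraries (4.73% of protein-coding genes), or in all neonatal and no adult libraries (0.139%).

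**Figure D1:**
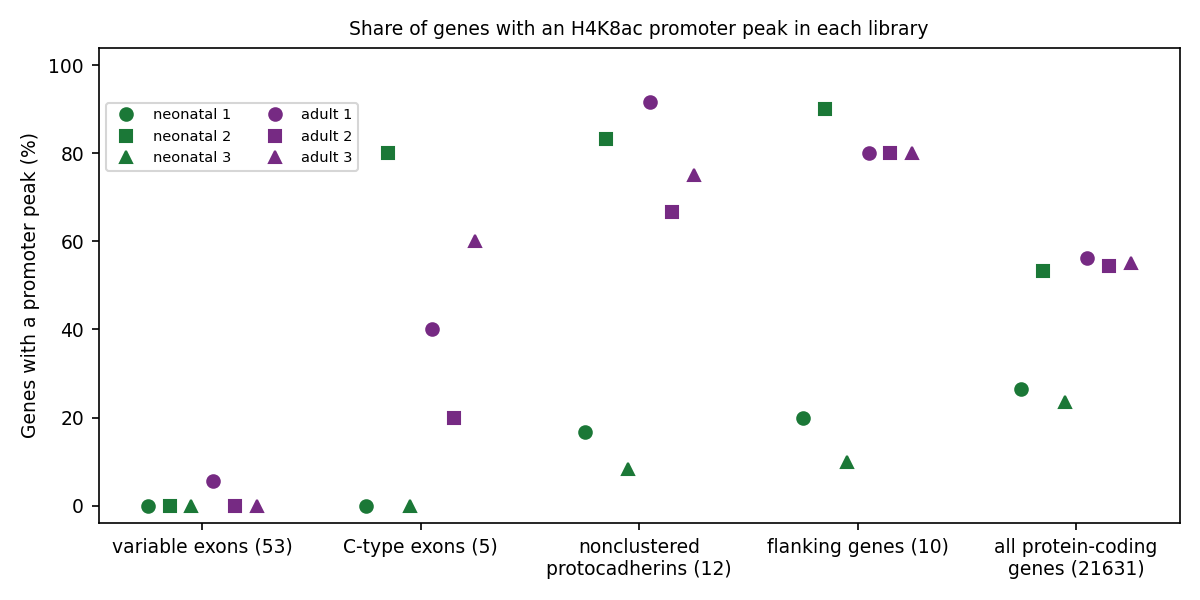
Share of genes (%, y axis) with an H4K8ac promoter peak in each library, for variable and C-type clustered protocadherins, nonclustered protocadherins, flanking genes and all protein-coding genes; each point is 1 library, coloured by age, with the gene number in parentheses. The variable genes sit at 0 in 5 libraries and at 5.66% in adult replicate 1, below the 23.5% to 56.3% of all protein-coding genes.

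In the alpha cluster, Pcdhac2 was the only gene with a promoter peak, and it was marked at both ages. Pcdhac2 (RefSeq start 37143678) is a C-type protocadherin known for the even spread of serotonergic axons. Its peak in neonatal replicate 2 ran from 37143572 to 37144516, with a fold enrichment of 4.56. The adult peaks ran from 37143554 to 37144707 (fold 7.19), from 37143497 to 37144353 (fold 6.52) and from 37143473 to 37144415 (fold 4.64) in replicates 1, 2 and 3. Folds are the authors' own, relative to each list's background, and were not compared between libraries. The 4 peaks began near the annotated TSS of the transcript (37143503) and extended downstream into the gene: 100%, 100%, 99.3% and 96.8% of their bases lay downstream of that TSS in neonatal replicate 2 and adult replicates 1, 2 and 3. Across all peaks annotated within 1000 bp of a TSS, the median share was 82.0%, 66.2%, 66.7% and 62.5% in the same libraries. Peaks with almost all of their bases downstream were common, making up 40.2%, 31.2%, 32.9% and 29.0% of these. Relative to the RefSeq start, each of the Pcdhac2 peaks began upstream. Their highest points lay 345, 486, 145 and -100 bp from that start in the same libraries. Neonatal replicates 1 and 3 had no peak there. This combination of libraries, 3 adult and neonatal replicate 2 alone, was common: 17.4% of protein-coding genes had it.

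The rest of the alpha cluster had no promoter peak in any library. This holds for the other C-type gene, Pcdhac1 (start 37090136), and for all 12 variable genes, Pcdha1 to Pcdha12. All 13 start inside a stretch of 341 kb, from 36802506 to 37143472, that has no peak in any of the 6 lists. It is the 1167th longest of 97958 peak-free stretches between peaks of the 6 lists. It ranks higher by gene content, 62nd, with 16 protein-coding gene starts; the median over the 1362 stretches longer than 300 kb is 1. Between Pcdhac2 and the end of the cluster, the authors assigned peaks to 2 genes on the opposite strand. Gm10544 was named in neonatal replicate 2 and all 3 adult libraries, and Gm38097 in adult replicates 1 and 3. In sum, peaks covered 0, 1.37 and 0 kb of the 258.6 kb alpha cluster in neonatal replicates 1 to 3, and 1.44, 1.04 and 1.57 kb in adult replicates 1 to 3.

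The beta cluster had no peak of any kind in any library. Its 22 genes, from Pcdhb1 to Pcdhb22 (37264998 to 37521419), carry no shared constant exons and have no C-type member. They lie in a peak-free stretch of 477 kb, from 37178920 to 37655588. That stretch holds 24 protein-coding gene starts, the 39th highest number of any peak-free stretch, and the 2 other genes in it, Slc25a2 and Taf7, also had no promoter peak. The peak that ends the stretch was assigned to 3222401L13Rik, between the beta and gamma clusters. Peaks of that gene were present in adult replicates 1, 2 and 3, covering 0.572, 0.680 and 0.745 kb, and in no neonatal library. Peak numbers have no gap between the first and last peak of each list inside the 3 clusters. In neonatal replicate 2 and the adult libraries those peaks enclose the beta cluster, so no listed peak is missing there. In neonatal replicates 1 and 3 they lie only in the gamma cluster, so the numbering cannot check the beta cluster. The alpha variable genes lie outside the checked part in every list.

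**Figure D2:**
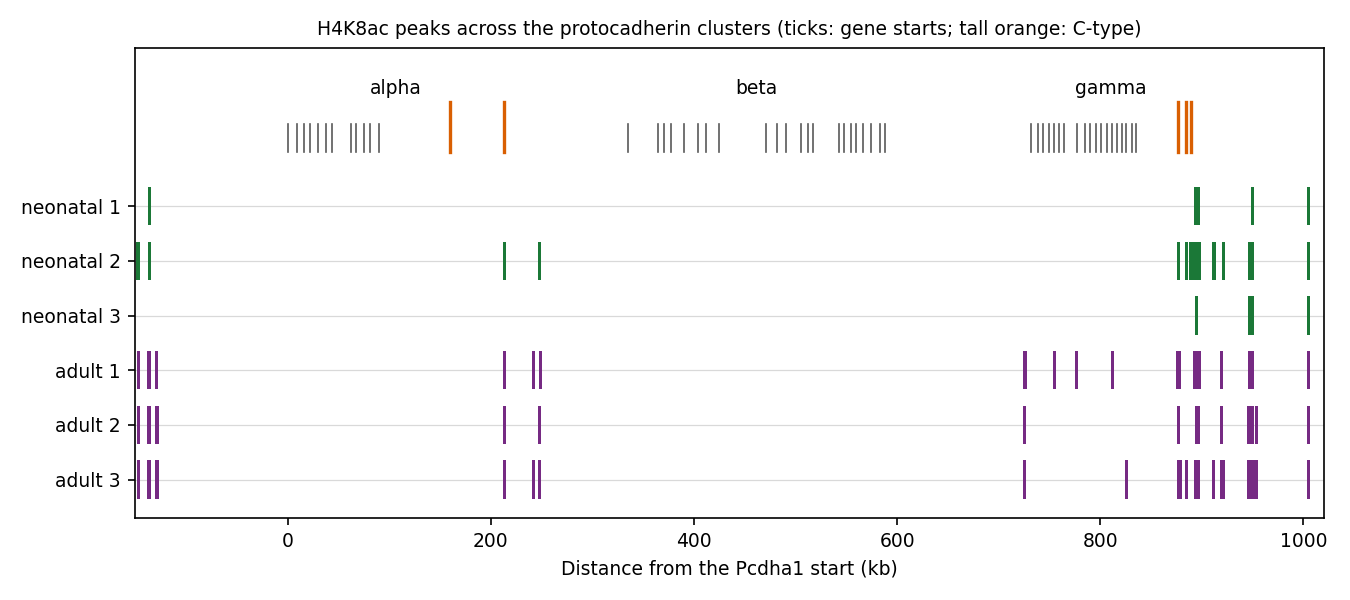
Positions of H4K8ac peaks (bars) in the 6 libraries across the 3 clusters, as distance in kb from the Pcdha1 start; ticks above mark gene starts, with tall orange ticks for C-type genes. Bars narrower than 3 kb were drawn 3 kb wide. The alpha variable genes and the beta genes have no bar in any library, and bars gather at the C-type ends.

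Most genes on either side of the clusters were marked in the adult libraries and in neonatal replicate 2. Among the 5 protein-coding genes on each side, 2, 9 and 1 of 10 had a promoter peak in neonatal replicates 1 to 3, and 8 of 10 in each adult library. Peaks covered 0.132%, 0.696% and 0.0358% of the whole interval of 911.6 kb in neonatal replicates 1 to 3, where 0.116%, 0.537% and 0.0913% were covered over all chromosomes. In adult replicates 1 to 3 they covered 0.818%, 0.601% and 0.854% of the interval, below the 1.64%, 1.73% and 2.38% covered over all chromosomes.

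In the gamma cluster, 3 of 19 variable genes were named, all in adult replicate 1. Pcdhga4 had a peak of 176 bp (37685516 to 37685691, fold 3.98). Pcdhga6 had a peak of 255 bp (37707167 to 37707421, fold 3.98), and Pcdhgb6 a peak of 218 bp (37742078 to 37742295, fold 3.61). These are narrow and weak within their list: they ranked at 73.2%, 73.2% and 84.5% of the 72278 peaks by p-value, where 100% is the weakest, and the median promoter peak there was 469 bp wide with a fold of 5.78. A promoter peak in adult replicate 1 and no other library was found for 0.92% of protein-coding genes. A peak of 255 bp in adult replicate 3 (37755842 to 37756096) lies just downstream of the Pcdhga11 start (37755773) but was assigned to Gm26672. The remaining variable gamma genes, among them Pcdhga1, Pcdhga2, Pcdhga3, Pcdhgb1, Pcdhgb2, Pcdhga5, Pcdhga7, Pcdhgb4, Pcdhga8 and Pcdhgb5, had no peak within 3000 bp of their start in any library.

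Pcdhgc3 had the highest-ranked peak of any member in neonatal replicate 2 and in adult replicates 1 and 3. Pcdhgc3 (RefSeq start 37806410) is a C-type protocadherin known to promote dendrite branching. A peak just downstream of its start was found in neonatal replicate 2 (37806473 to 37807602, fold 5.52) and in all 3 adult libraries. The adult peaks were 1449, 1465 and 1438 bp wide, with folds of 10.3, 4.95 and 7.21 in replicates 1, 2 and 3. In adult replicate 2 the authors assigned this peak to BC037039, a gene on the opposite strand, so that library is missing from the count of Pcdhgc3 promoter peaks. The highest points of the 4 peaks lay 547, 410, 522 and 461 bp downstream of the RefSeq start, in neonatal replicate 2 and adult replicates 1, 2 and 3. Adult replicate 1 had a second, narrow Pcdhgc3 peak of 264 bp upstream of the start (fold 3.54). Adult replicates 1 and 3 also had peaks 3' of the main one that were assigned to BC037039.

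The other gamma C-type genes had narrow peaks. Pcdhgc4, a C-type protocadherin known to be needed for the survival of neurons, had a peak of 199 bp in neonatal replicate 2 (37815454 to 37815652, fold 4.31) and of 263 bp in adult replicate 3 (37815428 to 37815690, fold 2.98). These lie over the same bases, and no other library had a peak there. Pcdhgc5 had a peak of 162 bp in neonatal replicate 2 (37819598 to 37819759, fold 4.56) and none elsewhere. Neonatal replicate 2 is thus the library in which all 3 gamma C-type genes were marked.

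The 3' end of the gamma cluster was marked in every library. The stretch from the Pcdhgc5 start to the cluster end at 37841873 contains the constant exons. Peaks covered 1.21, 3.65 and 0.326 kb of its 22.33 kb in neonatal replicates 1, 2 and 3, and 2.41, 2.29 and 3.14 kb in adult replicates 1, 2 and 3, so the ages overlapped. Most of the covered bases lay in a region of 2394 bp (37823754 to 37826147) that had a peak in all 6 libraries, the only such region of the 20 in the interval. The authors assigned it to Gm38182, a gene on the same strand inside the cluster, so none of these peaks counts as a clustered protocadherin row. Gm38182 accounts for all 4 peaks of neonatal replicate 1 and the single peak of neonatal replicate 3 in the 3 clusters. The peak of Gm38182 with the highest fold reached 5.50, 6.84 and 3.80 in neonatal replicates 1 to 3 and 7.59, 6.65 and 5.08 in adult replicates 1 to 3. In neonatal replicates 1 and 2 that peak lay 3' of the region found in all 6 libraries. Inside the region the highest folds in these 2 libraries were 4.95 and 5.48. Neonatal replicate 2 and adult replicate 3 each had a peak annotated as 3' untranslated region within the last kilobase of the cluster.

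**Figure D3:**
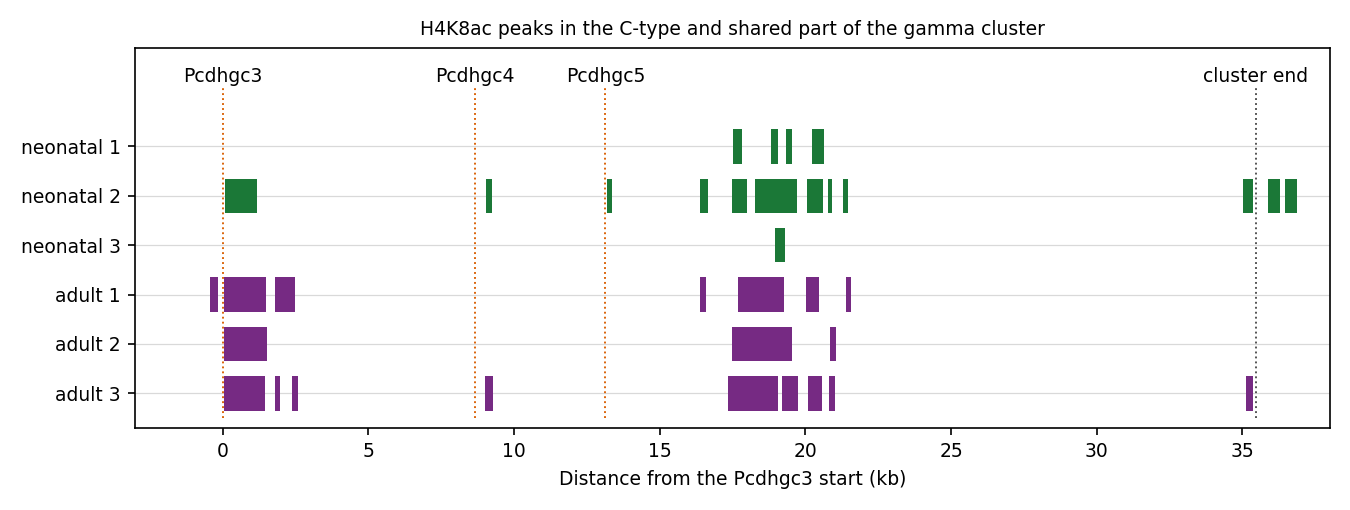
H4K8ac peaks (bars, drawn to scale) in the 6 libraries over the 3' part of the gamma cluster, as distance in kb from the Pcdhgc3 start; dotted lines mark the starts of the 3 C-type genes and the end of the cluster. Neonatal replicate 2 and all adult libraries have a wide peak at Pcdhgc3, and all 6 libraries have a peak within the group downstream of Pcdhgc5.

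Past the gamma cluster, the authors assigned the nearest peaks to Diaph1, the neighbouring gene. The first 2 regions, at 37842299 to 37842703 and 37842871 to 37843294, were annotated as distal intergenic and had a peak in 1 neonatal and no adult library. An intronic region at 37849732 to 37850341 followed, marked in each adult but in none of the neonatal libraries, and then a promoter region at 37851602 to 37852018 with a peak in 1 library of each age. Farther into the Diaph1 intron, a region of 769 bp (37879493 to 37880261) had a peak in all 6 libraries. Over the 8.23 kb around it (37876025 to 37884253), peaks covered 0.274, 1.14 and 0.401 kb in neonatal replicates 1 to 3. In the longer lists of adult replicates 1 to 3 they covered 2.18, 2.54 and 4.05 kb.

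The ages were compared gene by gene on the number of bases covered by peaks within 1000 bp of the RefSeq start, a length that does not rest on the authors' choice of gene. At Pcdhgc3, neonatal replicates 1, 2 and 3 had 0, 938 and 0 covered bases, whereas adult replicates 1, 2 and 3 had 1237, 943 and 974. All adult values lay above all neonatal values, but adult replicate 2 exceeded neonatal replicate 2 by only a few bases. The main peaks of neonatal replicate 2 and of all adult replicates run past the edge of the window, which cuts them short. Their lengths inside it thus depend on where each peak starts. The value of adult replicate 1 also includes its second, narrow peak of 264 bp. Within 3000 bp, 0, 1130 and 0 bases were covered in neonatal replicates 1 to 3, and 2391, 1465 and 1802 in adult replicates 1 to 3. There the values of adult replicates 1 and 3 include peaks besides the main one. Within 1000 bp, the neonatal mean was 312.7 ± 541.6 and the adult mean 1051 ± 161.5 bases (SD, n = 3 each). This difference within 1000 bp had an exact two-sided permutation p of 0.1 and a Benjamini-Hochberg adjusted p of 0.239 over 17332 genes. With 3 libraries against 3, 0.1 is the smallest p-value possible. Full separation within 1000 bp with the adult libraries higher was seen for 41.8% of the 17332 genes, and with the adult libraries lower for 0.0923%. Pcdhgc3 was the only one of the 58 members with the first pattern, and none had the second.

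Pcdhac2 had 0, 945 and 0 covered bases in the neonatal libraries and 1125, 857 and 943 in the adult libraries. Here neonatal replicate 2 lay above adult replicates 2 and 3, so the ages overlapped. The difference of means was 660 bases (exact permutation p = 0.3, adjusted p = 0.623, n = 3 and 3). Without neonatal replicate 2, in which every neonatal member peak was found, Pcdhac2 also had all adult above all neonatal libraries, a pattern then shared by 49.6% of genes. At Pcdhgc4, 0, 199 and 0 bases were covered in neonatal and 0, 0 and 263 in adult libraries. Pcdhgc5 had 162 covered bases in neonatal replicate 2 alone and Pcdhac1 had 0 in all 6. For each of these 3 genes the exact permutation p was 1 (n = 3 and 3). In all, 8 of 58 members had any covered base within 1000 bp, and the same number within 3000 bp.

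**Figure D4:**
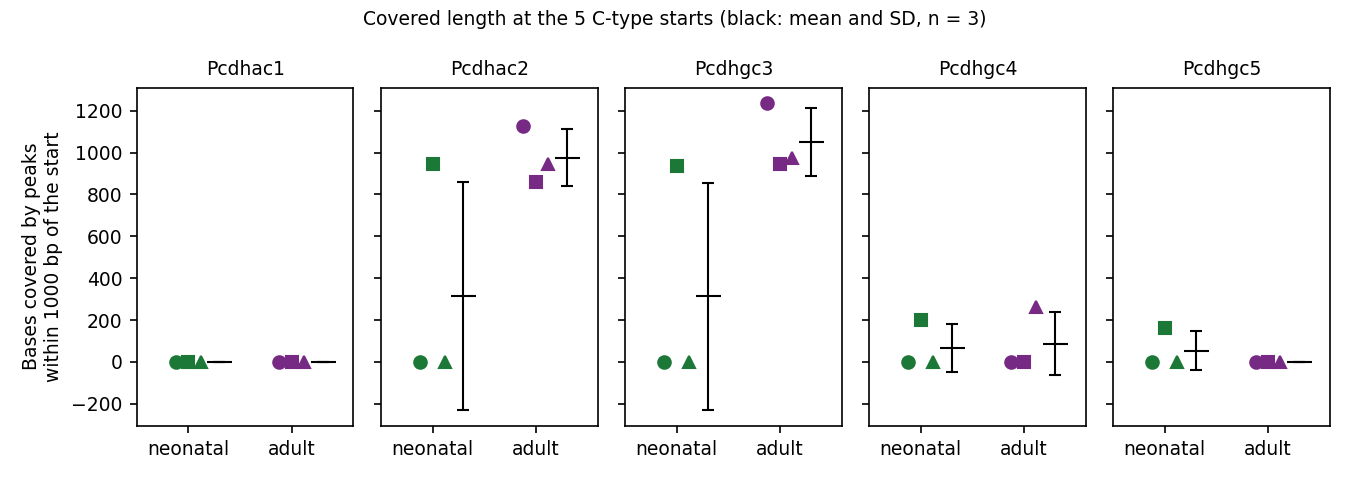
Bases covered by H4K8ac peaks within 1000 bp of the start of each C-type gene; each point is 1 library (circle, square and triangle for replicates 1, 2 and 3) and black marks give the mean and SD (n = 3). At Pcdhac2 and Pcdhgc3 neonatal replicate 2 sits beside the 3 adult libraries, and neonatal replicates 1 and 3 sit at 0. The main Pcdhgc3 peaks run past the 1000 bp window, which cuts their covered lengths short.

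Within their own lists of all peaks, the member peaks ranged from the upper ranks, at Pcdhgc3 and Pcdhac2, to low ranks, at Pcdhgc4 and the variable genes. By p-value, the main Pcdhgc3 peak ranked at 36.2% of the list of neonatal replicate 2 and at 12.2%, 29.4% and 17.1% of the lists of adult replicates 1, 2 and 3. Pcdhac2 ranked at 43.4% in neonatal replicate 2 and at 21.1%, 26.5% and 42.2% in the adult libraries. Pcdhgc4 ranked at 67.4% and 91.7% in neonatal replicate 2 and adult replicate 3, and Pcdhgc5 at 60.3% in neonatal replicate 2. Among promoter peaks alone the ranks were lower. Pcdhac2 then ranked at 55.7% in neonatal replicate 2 and at 36.8%, 42.2% and 58.7% in adult replicates 1, 2 and 3. The main peak assigned to Pcdhgc3 ranked at 48.0% in neonatal replicate 2 and at 24.4% and 32.4% in adult replicates 1 and 3. The Pcdhac2 and main Pcdhgc3 peaks were wider than most: among promoter peaks of the same list, those assigned to these genes exceeded 67.6% to 94.2% in width. When each list was limited to its 7353 strongest peaks, the length of the shortest list, no clustered gene had a promoter peak in any library. At that number, 23.0%, 27.2% and 23.5% of protein-coding genes had one in neonatal replicates 1 to 3, and 26.4%, 23.1% and 23.9% in adult replicates 1 to 3. This limit keeps the whole list of neonatal replicate 3 and most of that of neonatal replicate 1, but a small part of the adult lists.

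**Figure D5:**
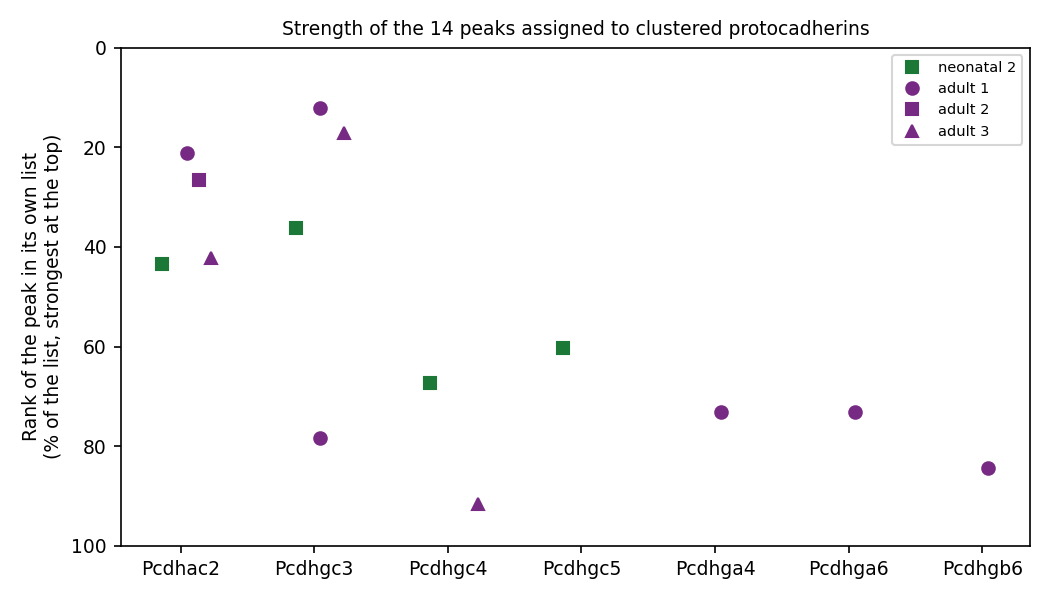
Rank of each of the 14 peaks assigned to clustered protocadherins within its own list by p-value (% of the list, y axis reversed so that the strongest are at the top); points are coloured by age and shaped by replicate. Pcdhgc3 and Pcdhac2 hold the upper ranks, between 12.2% and 43.4% apart from the narrow second Pcdhgc3 peak at 78.4%, and the variable genes lie at 73.2% to 84.5%.

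The authors also deposited a table of sites that differ between the ages. From its p-values, 54838 sites were tested for the authors' deposited table, which lists 79.6% as higher in adult and 0.463% as lower at an adjusted p-value of up to 0.05. Its direction was read from the lists: positive sites overlapped a peak in 85.0% to 96.7% of cases in adult libraries and in 10.3% to 27.8% in neonatal libraries. In the authors' deposited table, 3 listed sites lie within the interval from Pcdha1 to the end of the gamma cluster, all higher in adult. The site over Pcdhgc3 (37806614 to 37807013), with the overlapping BC037039, has a log2 fold change of 1.49 and an adjusted p of 0.00658 in the authors' deposited table. A site 3' of it, assigned to BC037039 (37808686 to 37809085), is given there, in the authors' deposited table, with a log2 fold change of 1.80 and an adjusted p of 0.0173. The site at 3222401L13Rik (37655545 to 37655944) is given in the authors' deposited table with a log2 fold change of 2.14 and an adjusted p of 0.000164. All 3 lie below the median of 2.41 over the sites that the authors' deposited table lists. Their percentiles among the listed fold changes of the authors' deposited table are 15.6, 28.4 and 41.1. No site of Pcdhac2, Pcdhgc4, Pcdhgc5 or a variable gene is listed in the authors' deposited table, and none of the Gm38182 region. The 10950 tested sites that the authors' deposited table does not list were not analysed here.

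Most protocadherins outside the clusters were marked in the adult libraries and in neonatal replicate 2. Of 12 nonclustered protocadherins, which have their own separate loci, 2, 10 and 1 had a promoter peak in neonatal replicates 1 to 3 and 11, 8 and 9 in adult replicates 1 to 3. Among the 7353 strongest peaks of each list these genes numbered 2, 1 and 1 and then 1, 1 and 1. Pcdh1 had one in all 6 libraries, and Pcdh17 in 2 neonatal and all adult libraries. Pcdh15, a gene known to be expressed in OPCs, had one in neonatal replicate 2 and all adult libraries. Pcdh7, Pcdh9, Pcdh10 and Pcdh20 had the same pattern, as did 17.4% of protein-coding genes. Pcdh11x had one in all adult and no neonatal libraries. Pcdh12, known from endothelial cells, had none.

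Genes whose products act on the clusters or on their proteins were marked widely. The regulators were CTCF and cohesin, which loop the cluster promoters to their enhancers, together with silencing factors such as Smchd1, Dnmt3b and Setdb1. Of these 14 genes, 11, 13 and 9 had a promoter peak in neonatal replicates 1 to 3 and 13, 14 and 14 in adult replicates 1 to 3. Ctcf, Rad21, Smc3, Stag1, Stag2, Nipbl, Smchd1, Dnmt3b and Trim28 had one in all 6 libraries, as did 17.5% of protein-coding genes. Setdb1 had one in 2 adult libraries alone. Of 10 cytoplasmic partner genes, which include the kinases Ptk2 and Ptk2b and the actin-regulating WAVE complex, 9, 9 and 8 had one in neonatal replicates 1 to 3 and all 10 in each adult library. Ptk2b had one in all adult and no neonatal libraries.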

How the data were processed

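Per the submitters' processing notes, Trim Galore, Bowtie2 2.4.5, SAMtools, deepTools, MACS2, DiffBind and ChIPseeker were used with build GRCm38; their settings and order are not given in the sources used here. Per the file headers, each deposited list holds, for peaks called per library, positions, a score, a fold (a linear ratio over background) and −log10 of the p-value and q-value. Per site, the authors' deposited table of differential sites gives the log2 fold change with raw and adjusted p-values.

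From these files, promoter peaks were counted by assigned gene, peak bases were summed over windows and loci, and starts were taken from RefSeq (Python 3.11.15, numpy 2.4.6, pandas 2.3.3). Background shares used 21631 protein-coding genes on chromosomes 1 to 19 and X. Differences in covered length were given an exact two-sided permutation p over 20 arrangements of the libraries, for 17332 genes with a known strand and start, checked on simulated data. Peaks were ranked by p-value, then fold. Depth is unknown, so no counting intervals are given.

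The members and gene lists were chosen with earlier results of these data known. Named genes are the C-type genes, members with a peak, those differing fully between ages, and up to 10 unmarked members per cluster or their range; other list genes named apart from those differing fully between ages were picked after their values were seen. Alternatives were an equal number of peaks, a stricter q-value, other windows and assignments, wider peaks, and leaving out each library. Input libraries were not used.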

Additional observations from a re-analysis of the deposited data

How the results depend on the processing

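Of 167 recomputed values, 146 stayed within the spread or within 1.5 times the count, 17 moved and 4 reversed. The 146 include values that were 0 in every setting, such as those of the beta cluster and Pcdhac1. They also include age differences that became 0 with the 7353 strongest peaks. With all peaks these were 660 covered bases at Pcdhac2, 738.7 at Pcdhgc3 and 1.67 members with a promoter peak. With the 7353 strongest peaks of each list, the number of members with a promoter peak in at least 1 library went from 7 to 0, and the counts for alpha, gamma, variable and C-type genes and for members higher in every adult library all became 0. The adult minus neonatal difference in covered length then became 0 kb for the alpha cluster (0.898 kb with all peaks) and -0.511 kb for the gamma cluster (2.72 kb with all peaks), a change of direction. That limit keeps the whole list of neonatal replicate 3 and a small part of the adult lists, so it removes more adult than neonatal peaks by construction. With peaks at least 300 bp wide, 2 members had a promoter peak, both C-type, with 1 gamma and 0 variable.

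Leaving out 1 library at a time, members with a promoter peak ranged from 4 to 7, gamma members from 3 to 6 and variable members from 0 to 3. The lowest values came without adult replicate 1, which alone held peaks that the authors assigned to variable genes. Members higher in every adult library numbered 1 to 2, with Pcdhac2 added when neonatal replicate 2 was left out. The Pcdhgc4 difference in covered bases was 21.33 with all libraries and ranged from -66.33 to 87.67, so its direction is not settled; it was -11.83 without neonatal replicate 1 or 3 and -66.33 without adult replicate 3. The difference between ages in mean number of members with a promoter peak was 1.67 genes and ranged from 0.667 to 3. Sites assigned to members in the authors' deposited table numbered 1, which became 0 at an adjusted p under 0.005 and 3 by position within the interval.

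The ages share replicate numbers, but same-numbered libraries did not deviate together (correlations of 0.0685, -0.239 and -0.235 over genes). With the replicate number as a block, members higher in every adult library stayed at 1. The differences in covered bases, 660 for Pcdhac2 and 738.7 for Pcdhgc3, cannot change with pairing. Their exact sign-flip p was 0.5 (adjusted p = 0.982) for Pcdhac2 and 0.25 (adjusted p = 0.565) for Pcdhgc3. The exact sign-flip test over 3 pairs cannot go below 0.25.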
